A study of Artemisia annua with 12 samples.

Results

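In leaves of Artemisia annua, 116 of the 63226 genes in the deposited table stood at or near 0 before supplementary UV-B and reached a clear level in every library of at least 1 later harvest. A gene was taken when its normalised value was 0.1 or less in all 3 libraries at 0 h and 5 or more in all 3 libraries at 2, 4 or 6 h. These values chose the genes, so their absence at 0 h and their rise above it are a description, and no test of the contrasts with 0 h is offered as a result.

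The plants were wild type seedlings of the high-artemisinin cultivar Huhao 1, 6 weeks old, and the newest fully expanded leaf was harvested at 0, 2, 4 and 6 h under additional narrowband UV-B lamps (1.5 μmol per square metre per second). Each harvest has 3 libraries, called biological repeats in the labels, and leaves of 3 seedlings were mixed for each library. The labels give no seedlings kept without the lamps until 2, 4 or 6 h, so exposure and time of day cannot be told apart. A library is a mix of all leaf cell types, in which more cells expressing a gene and more RNA per cell cannot be told apart.

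Plants sense UV-B through the photoreceptor UVR8, which on absorbing it separates into monomers and binds the ubiquitin ligase COP1. The transcription factor HY5 then accumulates and switches on genes for flavonoid sunscreens, photoprotection and DNA repair. Repressors of the pathway are induced as well, so that many responses to UV-B pass through a peak. In Artemisia annua, artemisinin is made in the glandular trichomes of the leaf surface. The table lists identifiers without gene names and no annotation came with it, so which of these roles the 116 genes fill was not analysed here. The 2 members with the highest mean over the exposed libraries and the 2 with the largest fall between 2 and 6 h are given by identifier. The others are called by rank, from 1 to 116, in the mean of their highest harvest.

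The header of the table names no unit. Whether the values are divided by gene length was not tested, so ranks and comparisons of level between genes hold on the deposited scale only. Library totals lay between 851404 and 868133; read depth is unknown. The 110 members found after median-ratio scaling of the libraries were all among the 116.

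At 0 h the members were close to the lowest values that the table lists. Of the 116, 91 (78.4%) were listed at 0 in all 3 libraries, and the other 25 had at least 1 value between 0.02 and 0.1. Above 0 were 40 of the 348 values at 0 h, and the summed value of all members was 0.7, 0.77 and 0.98 in the 3 libraries. The 5 members above 0 in all 3 libraries give a fold over 0 h, which ran from 86.6 at rank 97 to 1281 at rank 2 for the mean of the highest harvest against the mean at 0 h; with 2 decimals in the table, these folds are coarse. For the other members no fold is given, because at least 1 library was listed at 0, which can also be a failed estimate.

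Genes near 0 at 0 h were common, and few of them rose. The table holds 30909 genes (48.9%) at 0.1 or less in all 3 libraries at 0 h, and 25085 of these stayed at 0.1 or less in all 12 libraries. The 116 members are 0.375% of the genes near 0 at 0 h. A value of 1 or more in all 3 libraries of some exposed harvest was reached by 486 genes, 2 or more by 285, 10 or more by 51, 20 or more by 19 and 50 or more by 8. By harvest, 68 of the 116 were at 5 or more in all libraries at 2 h, 64 at 4 h and 71 at 6 h; at 10 or more the number was 29 at each harvest, and at 50 or more it was 3, 7 and 4.

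**Figure D1:**
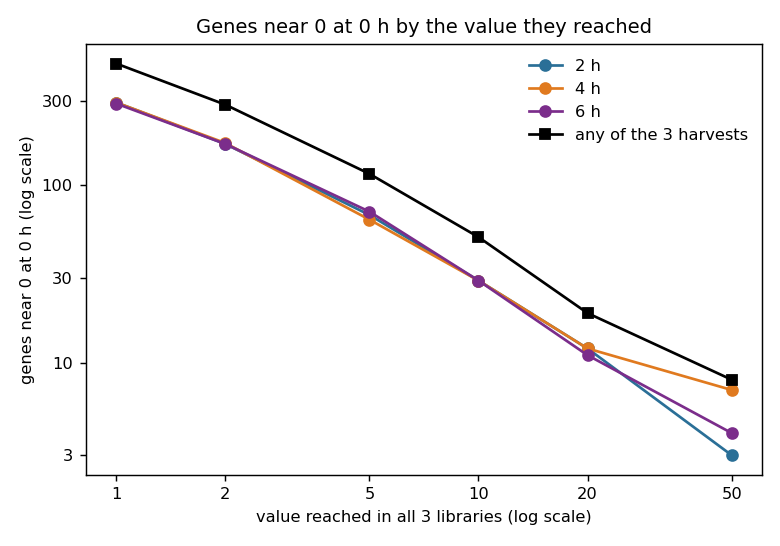
Number of genes near 0 in all 3 libraries at 0 h (vertical axis, log scale) that reached a given normalised value in all 3 libraries of a later harvest (horizontal axis, log scale), for 2, 4 and 6 h (coloured) and for any of them (black squares). The black line passes from 486 genes at a value of 1 through the 116 members at 5 to 8 genes at 50, and the coloured lines stay close together up to 20.

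The limits of the rule cut through a continuum. The lowest value in the best harvest of a member was 5.03, and the nearest gene outside stood at 4.92. Members with such a value of 6 or less numbered 23, and 33 genes near 0 at 0 h lay from 4 to just under 5. On the side of 0 h, 18 members had a highest value of 0.05 to 0.1, and 29 genes that were otherwise like the members had a highest value above 0.1 and up to 0.2, the nearest at 0.11. With 0.5 in place of 0.1 the rule found 214 genes.

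The levels that the members reached spread widely. The mean of the highest harvest had a median of 10.7 and ran from 5.55 to 189.6; it was under 10 in 53 members, 20 or more in 24, 50 or more in 8 and 100 or more in 3. Together the members held 0.146% ± 0.00378 (SD, n = 3) of the summed values of a library at 2 h, 0.183% ± 0.0107 at 4 h and 0.169% ± 0.00698 at 6 h. A small number of genes carried much of this: the 10 members of highest rank made up 32.5% ± 1.67 of the members' sum at 2 h, 48.7% ± 0.88 at 4 h and 42.5% ± 3.18 at 6 h. The best placed member stood between position 546 and 582 among all genes at 4 h.

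Differences between the exposed harvests were tested for all genes together, in a limma model of the 12 libraries on log2(value + 1), over the 25841 genes that reached a value of 1 in 3 or more libraries. All 116 members pass that filter by the way they were chosen. The rule reads the same libraries but fixes no direction among 2, 4 and 6 h for a gene present at all of them. For a gene present at 1 harvest it nearly does, and for a gene present at 2 it favours one. The counts below therefore describe the members.

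CTI12_AA422800, rank 1, had a listed value of 0 in all libraries at 0 h. It stood at 91.04, 81.39 and 103.58 in the libraries at 2 h, at 190.61, 192.98 and 185.22 at 4 h, and at 176.96, 162.72 and 132.93 at 6 h. The libraries at 4 h lay above all others, and those at 6 h lay above those at 2 h. Between 2 and 4 h it rose on the log2(value + 1) scale by 1.04 ± 0.101 SE (limma adjusted p = 6.83e-06). The difference from 4 to 6 h was -0.28 ± 0.101 SE (limma adjusted p = 0.119), and that from 2 to 6 h was 0.77 (limma adjusted p = 8.09e-05).

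CTI12_AA165170, rank 2, varied little between libraries of a harvest. Its values were 0.09, 0.10 and 0.09 at 0 h, then 97.03, 95.38 and 96.62 at 2 h, 120.66, 118.29 and 119.66 at 4 h, and 91.90, 99.39 and 94.11 at 6 h. Every library at 4 h lay above every library at 2 and 6 h, which overlapped. It rose by 0.31 ± 0.0391 SE on the log2(value + 1) scale from 2 to 4 h (limma adjusted p = 5.75e-05) and fell by 0.33 ± 0.0391 SE from 4 to 6 h (limma adjusted p = 0.000316). The difference between 2 and 6 h was -0.02 (limma adjusted p = 0.72), and -0.10 with median-ratio scaling (limma adjusted p = 0.039).

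CTI12_AA433900 and CTI12_AA598760, ranks 11 and 10, stood above 0 at 2 h and at no other harvest. CTI12_AA433900 had values of 48.23, 40.52 and 48.62 at 2 h, and CTI12_AA598760 had values of 38.48, 50.90 and 48.19. Both were listed at 0 in all 3 libraries at 0, 4 and 6 h. From 2 to 4 h and from 2 to 6 h on the log2(value + 1) scale each differed by -5.54. Both genes met the rule and the filter on low values through the libraries at 2 h alone and were picked for this fall, so it is a description with no test. The pseudocount sets its size: with 0.1 the differences were -8.84 and -8.83 for the same genes in that order, and with 5 they were -3.34 for both.

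**Figure D2:**
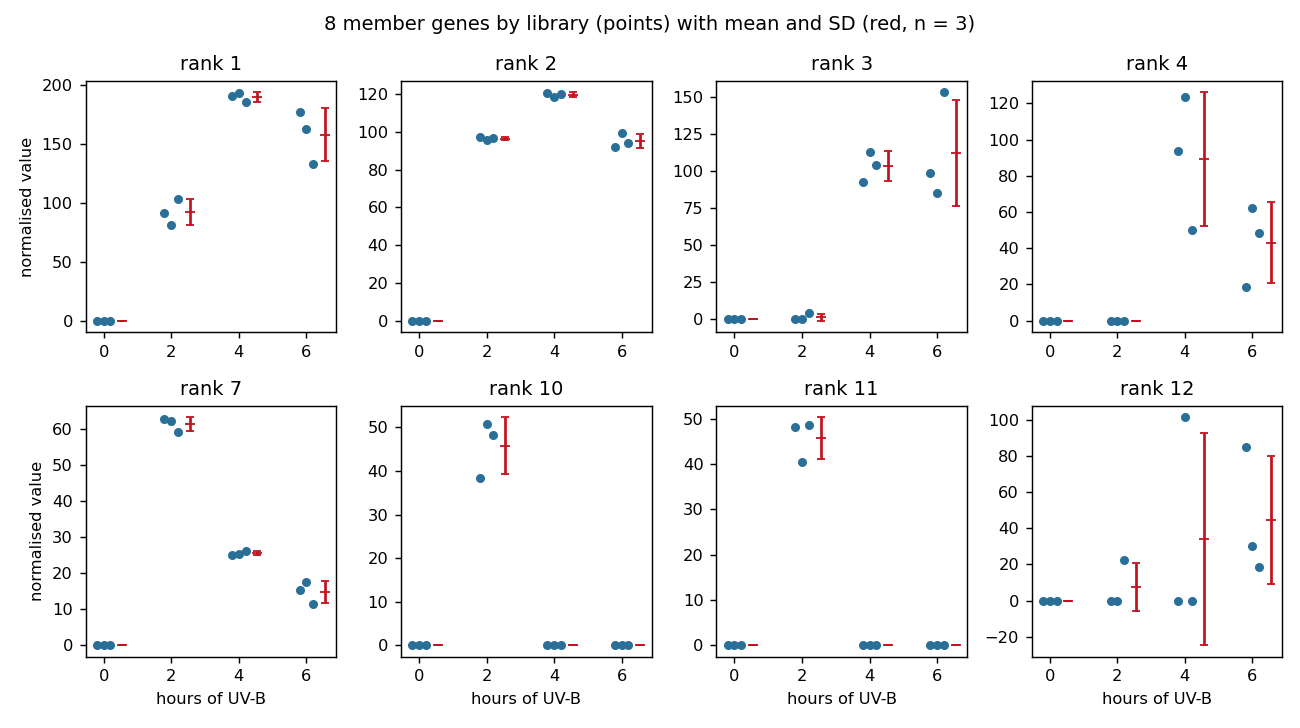
Normalised values of 8 members by library (blue points; horizontal axis, hours of UV-B), with the mean and SD of the 3 libraries of each harvest in red. Ranks 1 and 2 are CTI12_AA422800 and CTI12_AA165170, and ranks 10 and 11 are CTI12_AA598760 and CTI12_AA433900, which stand above 0 at 2 h only; rank 12 has libraries at 0 beside a library at 22.57 at 2 h and one at 101.47 at 4 h.

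The states of the members at the exposed harvests fell into 14 combinations when each harvest was called present (5 or more in all 3 libraries), near 0 (0.1 or less in all 3) or between. In 29 members (25%) the gene was present at 2, 4 and 6 h; 29 were present at exactly 2 harvests and 58 at 1. Those present at 1 harvest were 31 at 2 h, 11 at 4 h and 16 at 6 h. Going by the highest mean, 47 members peaked at 2 h (40.5%), 33 at 4 h and 36 at 6 h. Since the states follow from the values that chose the genes, they describe the courses and test nothing.

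**Figure D3:**
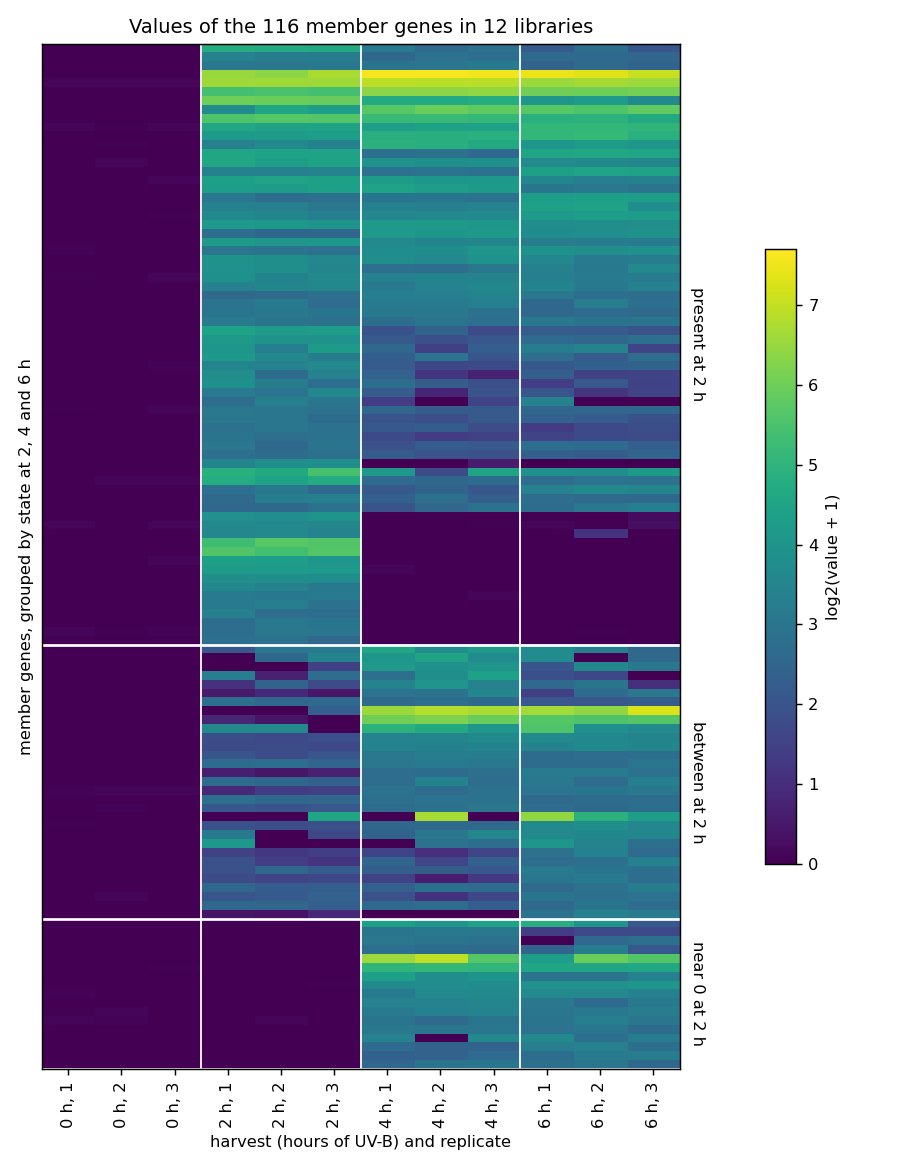
Values of the 116 members (rows, log2(value + 1)) in the 12 libraries (columns, by hours of UV-B and replicate), grouped from top to bottom by their state at 2 h, which is present in 68 genes, between in 31 and near 0 in 17. The 0 h columns are dark throughout, a block of genes present at 2 h is dark again at 4 and 6 h, and single dark cells inside lit rows mark libraries that differ from others of their harvest.

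The 29 members present at all 3 exposed harvests include the highest levels, with a highest mean of 7.09 to 189.6 and a median of 18.8. Their levels were not constant. In 8 of them the highest harvest mean was less than 1.5 times the lowest, among them rank 2 and rank 34. Rank 34 stood at 15.9 ± 1.03 (SD, n = 3) at 2 h, 16.5 at 4 h and 13.3 at 6 h. At the other end, rank 7 dropped step by step, from 62.70, 62.10 and 59.16 at 2 h to 25.04, 25.35 and 26.23 at 4 h and 15.40, 17.57 and 11.48 at 6 h, with no overlap between harvests (log2 differences -1.23 ± 0.114 SE and -0.77 ± 0.114 SE, limma adjusted p = 4.63e-06 and 0.00143). Rank 5 rose from 42.3 ± 1.35 (SD, n = 3) to 83.6 ± 2.85 between 2 and 4 h and fell to 64.9 ± 2.03 at 6 h (limma adjusted p = 2.31e-08 and 0.000531).

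A pulse at 2 h was seen in 12 members, which were present then and near 0 at 4 and 6 h. Of the 12, 9 were listed at 0 in all 6 libraries at 4 and 6 h, and the highest later value of the other 3 was 0.08. All 12 were called lower at 4 h than at 2 h, beside 19.5% of all tested genes, but the choice of this group all but requires it. They met the rule and the filter on low values through the libraries at 2 h alone. These calls therefore describe the group and test nothing. Their level at 2 h ran from 5.80 to 45.9. Rank 29 stood at 19.20, 18.73 and 15.55 at 2 h, rank 47 at 12.97, 12.96 and 12.74, and both at 0 in each later library. With 3 members near 0 at 4 h and between at 6 h, and 1 in the opposite order, 16 members were present at 2 h and near 0 at a later harvest.

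A late group of 9 members was near 0 at 2 h, with no value above 0.07, and present at 4 and 6 h; a further 8 were near 0 at 2 h and present at only 1 of the later harvests. All 17 were called higher at 4 h than at 2 h, as were 31.1% of all tested genes; here too the choice of the group nearly fixes the call. The highest of them, rank 4, was listed at 0 at 2 h and stood at 93.70, 123.45 and 50 at 4 h and at 18.46, 62.14 and 48.45 at 6 h. These 2 harvests overlapped, and the difference of -1.10 ± 0.412 SE on the log2 scale did not pass the test (limma adjusted p = 0.134). Rank 14 was more even, at 31.61, 33.97 and 32.26 at 4 h and 22.50, 21.97 and 23.78 at 6 h (log2 difference -0.50 ± 0.0681 SE, limma adjusted p = 0.000778). Ranks 3 and 6, between at 2 h, belong close to this group: rank 3 was at 0, 0 and 3.93 at 2 h and at 92.66, 112.89 and 103.85 at 4 h, and rank 6 rose from at most 0.77 at 2 h to 58.82 or more at 4 h (log2 difference 5.61 ± 0.162 SE).

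A group of 11 members was between at 2 and 4 h and present at 6 h. Of these 11, 5 were called higher at 6 h than at 4 h, beside 4.44% of all tested genes. The group was defined by 5 or more in all 3 libraries at 6 h but not in all 3 at 4 h, which favours this call. Rank 51 rose at each step, from 2.83, 2.64 and 2.73 at 2 h to 4.91, 5.14 and 5.30 at 4 h and 11.81, 13.40 and 10.83 at 6 h (log2 differences 0.71 and 1.08, limma adjusted p = 4.37e-05 and 1.81e-05). Rank 93 stood at 1.64 at 2 h and 1.68 at 4 h in the mean and at 6.42, 9.39 and 5.46 at 6 h (log2 difference from 4 h 1.58 ± 0.185 SE, limma adjusted p = 0.000271).

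**Figure D4:**
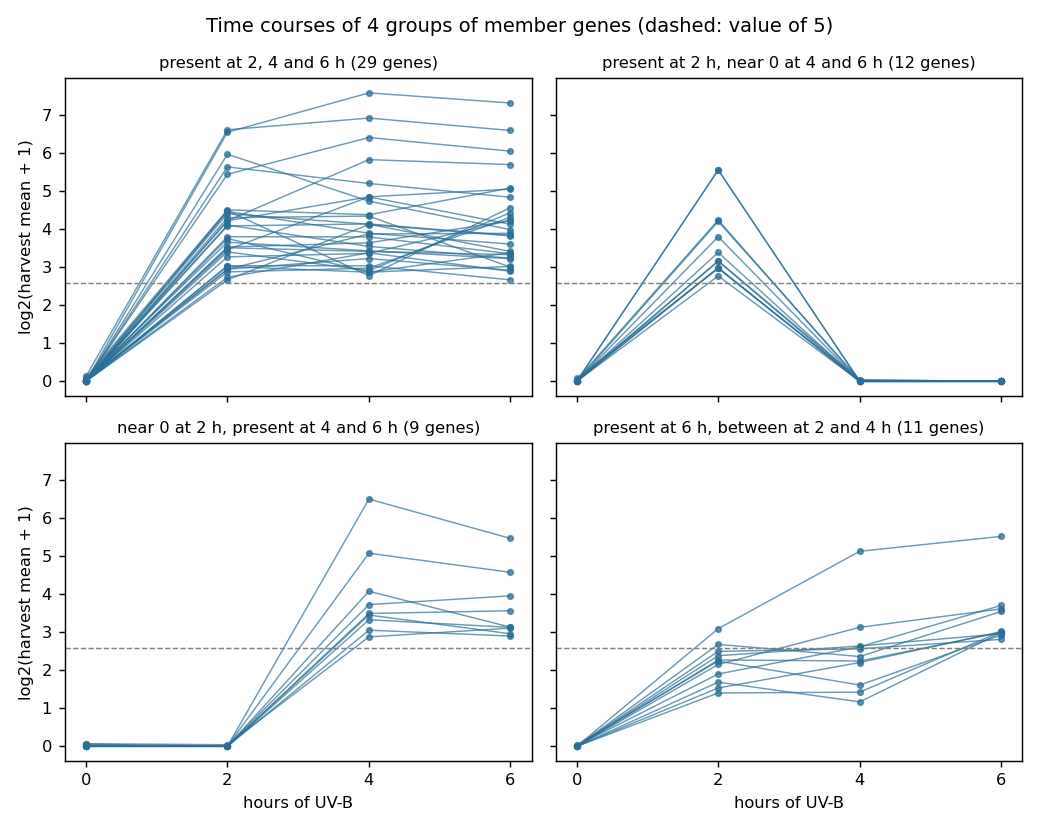
Harvest means of single members on the log2(mean + 1) scale against hours of UV-B, in panels for 29 genes present at 2, 4 and 6 h, 12 present at 2 h and near 0 later, 9 near 0 at 2 h and present later, and 11 present at 6 h and between at 2 and 4 h. Lines join the means of 3 libraries, the dashed line marks a value of 5, and the second panel is back near 0 at 4 h in every line.

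From 2 to 4 h, 41 members (35.3%) rose, 47 (40.5%) fell and 28 did not pass the test. Of all tested genes 31.1% rose and 19.5% fell. Among the 29 members present at all 3 exposed harvests, 9 rose and 8 fell. The median log2 difference of the members was 0.01, and that of all tested genes was 0.09. A difference of at least 1 on the log2 scale was called upward in 32 members and downward in 29. With median-ratio scaling 40 members rose and 50 fell, while the share of rises among the calls over all genes moved from 61.5% to 51.1%. Without replicate 1, 2 or 3 of the 2 h harvest, 29, 29 and 28 members were called lower. Of the 47 calls, 18, 19 and 19 were lost: 15 each time because the member then had a value of 1 or more in only 2 libraries and was not tested, and the rest among members still tested.

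From 4 to 6 h, 17 members (14.7%) rose, 20 (17.2%) fell and 79 did not pass the test. Over all tested genes 4.44% rose and 5.47% fell. The changes were mostly small: 9 of the rises and 2 of the falls reached 1 on the log2 scale. Among the 29 members present at all 3 exposed harvests, 7 rose and 13 fell from 4 to 6 h. From 2 to 6 h, 12 of the 29 rose and 11 fell. Between 2 and 6 h, 49 members were higher and 44 lower at 6 h, beside 29.9% and 20% of all tested genes, with a median log2 difference of 0.15 in the members and 0.08 in all tested genes. Without replicate 1, 2 or 3 of the 2 h harvest, 28, 29 and 29 members were lower at 6 h than at 2 h; 17, 16 and 15 of the 44 calls were lost, 15 of them each time in members no longer tested. Median-ratio scaling gave 49 higher and 46 lower, and over all genes it moved the share of rises from 59.8% to 50.5%.

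The contrasts with 0 h chose the members, so no calls of members against 0 h are given. In the same model 36.2%, 42% and 41.3% of all tested genes were called higher at 2, 4 and 6 h than at 0 h. Over all tested genes the median log2 change against 0 h was 0.13, 0.21 and 0.20, a shift that median-ratio scaling reduced to 0.0020, 0.0026 and 0.0032.

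Taking the 2 intervals together, 63 members were called between 2 and 4 h alone, 12 between 4 and 6 h alone, 25 in both and 16 in neither. A dip at 4 h, a fall followed by a rise, was called in 8 members. Rank 21 fell from 22.13, 21.29 and 20.46 at 2 h to 5.97, 6.30 and 5.23 at 4 h and returned to 22.54, 22.97 and 22.39 at 6 h (log2 differences -1.71 ± 0.0699 SE and 1.79 ± 0.0699 SE, limma adjusted p = 6.22e-09 and 1.1e-07). Its libraries at 4 h lay far below all others, while those at 2 and 6 h differed by 0.08 on the log2 scale (limma adjusted p = 0.341). Rank 23 dipped less, from a mean of 9.55 to 6.50, and ended at 19.35, 21.50 and 20.69, above both earlier harvests (limma adjusted p = 2.61e-07 from 4 to 6 h). Of the 8 members with a dip, 5 ended higher at 6 h than at 2 h and 2 lower. Rank 74, one of the 8, was present at 6 h only, and its fall went from 0.34, 0.30 and 0.85 at 2 h to 0 at 4 h. Ranks 40 and 61, also among the 8, were between at 4 h. For these members the choice favours part of the course.

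The opposite course, a rise to 4 h and a fall to 6 h, was called in 10 members, among them ranks 2, 5, 14 and 17. Rank 17 went from 9.14, 11.34 and 9.48 at 2 h to 30.12, 28.17 and 24.79 at 4 h and to 15.59, 17.81 and 15.90 at 6 h, with no overlap between harvests (limma adjusted p = 4.12e-07 and 0.00066). Over the 10 members the mean at 6 h was 0.276 to 0.803 times that at 4 h. Of the 10, 8 were still higher at 6 h than at 2 h. For ranks 2, 5, 17, 36 and 67, present at all 3 exposed harvests, the rule fixes no direction. Ranks 14, 38, 64 and 85 had no value above 0.02 at 2 h, so the choice nearly fixes their rise from there. For rank 75, between at 2 h, the choice favours this rise. For rank 85, between at 6 h, it also favours the fall. Rises at both steps were called in 3 members (ranks 51, 76 and 88). Falls at both steps were called in 4 (ranks 7, 9, 24 and 37). Ranks 51, 76 and 88 were present at 6 h only, as were ranks 93 and 95 below, so the choice favours their rises. Rises from 4 to 6 h with no call before them were seen in 6 members, at ranks 13, 27, 30, 31, 93 and 95; rank 27 was at 7.08, 5.73 and 6.19 at 2 h, at 6.95, 7.02 and 6.55 at 4 h, and at 18.40, 19.16 and 18.93 at 6 h (log2 difference from 4 h 1.34 ± 0.0782 SE, limma adjusted p = 1.71e-06).

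**Figure D5:**
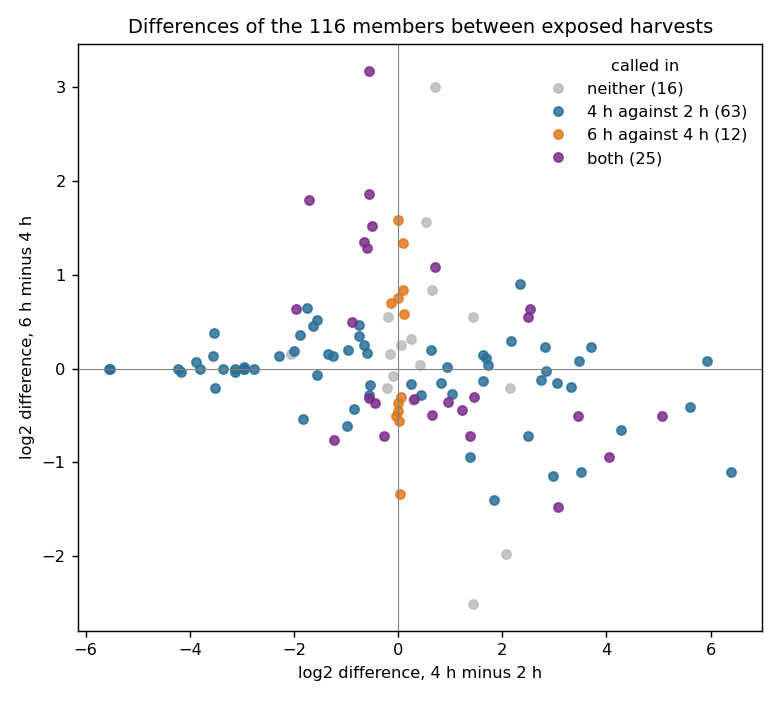
Log2 difference from 4 to 6 h (vertical axis) against that from 2 to 4 h (horizontal axis) for the 116 members, coloured by the interval in which limma called the gene at an adjusted p under 0.05. The 63 genes called between 2 and 4 h alone (blue) spread along the horizontal axis, while the 25 called in both intervals (purple) lie mostly in the upper left and lower right, where a dip or a peak at 4 h falls.

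Some members differed between libraries of the same harvest by as much as between harvests. In 8 of the 116 (6.9%), an exposed harvest held a library at 0.1 or less beside another at 5 or more. Among 14512 other genes with a highest harvest mean in the members' range, 146 (1.01%) did. Those genes were matched on the highest mean alone, while the members were also chosen for values near 0 at 0 h. The 2 shares are therefore not like for like, and their difference was not tested. Rank 12 was the extreme case, at 0, 0 and 22.57 at 2 h, at 0, 101.47 and 0 at 4 h, and at 85.10, 30.15 and 18.81 at 6 h, and it passed no test between exposed harvests (lowest limma adjusted p = 0.109). Rank 60 was at 16.19, 0 and 0 at 2 h and rank 35 at 12.04, 0 and 5.32 at 6 h. Of the 8 members, 3 were called in some comparison of exposed harvests. Without the 8, the members that rose and fell numbered 39 and 47 from 2 to 4 h, 17 and 20 from 4 to 6 h, and 46 and 44 from 2 to 6 h. What sets these libraries apart was not tested.

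For the members as a whole, the median coefficient of variation of members present at a harvest was 11% at 2 h, then 7.51% and 10.4%. Among those with a mean under 20 it was 11.4%, 7.59% and 12.1%, where other genes present at the same harvest with a mean under 20 had medians of 8.24%, 7.19% and 7.46%. The other genes were not matched on level below 20, and the difference was not tested. At the tight end were rank 2 at 2 h, with a coefficient of 0.892%, and rank 47, whose values at 2 h are given above.

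The rule was also applied with the libraries of 1 replicate number set aside, so that these libraries had no part in the choice. With replicate 1, 2 or 3 of every harvest set aside, 151, 159 and 156 genes were chosen. Of these, 132, 137 and 137 stood at 0.1 or less in the 0 h library that had been set aside, and 130, 130 and 132 were at 5 or more in the exposed library of a harvest that had chosen them. A value above 1 in the 0 h library set aside was found in 5, 7 and 5 genes, the highest being 27.7, 13.5 and 28.4. On the exposed side, 11, 8 and 9 genes were below 1 in the library set aside, the lowest at 0 each time. The 116 members are those that meet both limits in all 3.

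Genes on the reverse course were fewer in number. At 5 or more in all 3 libraries at 0 h and 0.1 or less in all 3 of some exposed harvest stood 66 genes, of which 28, 43 and 46 were near 0 at 2, 4 and 6 h, beside 68, 64 and 71 members present at these harvests. The 66 were 0.538% of the 12271 genes present at 0 h, where the 116 members were 0.375% of the 30909 genes near 0 then. These shares are not like for like. Of the 30909 genes, 25085 stayed at 0.1 or less in all 12 libraries, so which share is larger depends on whether they are counted. Of the members, 20.7% had a highest mean of 20 or more, and of the 66 lost genes, 24.2% had a mean of 20 or more at 0 h; this difference was not tested.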

How the data were processed

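RNA of 12 leaf libraries was profiled, 3 at each of 4 harvests. The authors deposited a table of normalised expression signal with values to 2 decimals and no stated unit. In the submitters' processing notes, HISAT2 2.1.0, Salmon and DESeq are named, with no word on what each did; the genome build and the counting rules are not given in the sources used here, so genes that share reads with near-identical copies cannot be picked out. Columns were matched to samples by title, and 0 columns belonged to none.

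Values were taken as log2(value + 1), which understates changes of low genes. Genes that reached 1 in 3 or more libraries were fitted in limma 3.58.1 (R 4.3.3; trend, robust, no replicate term), and calls were made at a Benjamini-Hochberg adjusted p under 0.05 over all tested genes; p-values measure the spread between these libraries. The procedure was tested on simulated data with normal noise on the log2 scale and no runs of values at 0. The simulation therefore does not cover genes that switch between 0 and a clear level. Alternatives were other limits of the rule, no filter, median-ratio scaling, a replicate block, pseudocounts of 5 and 0.1, limma without trend or robust estimation, a fit of the 9 exposed libraries, and leaving out each library. Leaving out the 8 members with unequal libraries was chosen after seeing the data. The members, lists and tests were chosen with earlier results of these data known; gene lists by name could not be used. The named genes are the 2 members with the highest mean over the 9 exposed libraries and the 2 with the largest called fall from 2 to 6 h; members given by rank were chosen as examples of a course after their values were seen. Library numbers showed no sign of pairing the samples. The deviations of same-numbered libraries from their harvest means correlated at -0.025 to 0.043 over genes, and those of differently numbered libraries at -0.034 to 0.037. Whether the harvests were paired by design cannot be decided from these values.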

Additional observations from a re-analysis of the deposited data

Results flagged for a closer look

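Levels differed between exposed harvests in a direct test (limma, adjusted over all tested genes). From 2 to 4 h 41 members were higher and 47 lower, beside 31.1% and 19.5% of all tested genes. From 4 to 6 h the members were 17 and 20, beside 4.44% and 5.47%, and from 2 to 6 h they were 49 and 44, beside 29.9% and 20%. For the 58 members present at 1 harvest the rule nearly fixes the direction, and for those present at exactly 2 it favours one. These counts therefore describe the members. The rule fixes no direction for the 29 members present at all 3 exposed harvests. Of these 29, 9 were higher and 8 lower from 2 to 4 h, 7 and 13 from 4 to 6 h, and 12 and 11 from 2 to 6 h. On the log2(value + 1) scale CTI12_AA422800 differed by 1.04 from 2 to 4 h and by 0.77 from 2 to 6 h, and CTI12_AA165170 by 0.31 from 2 to 4 h and by -0.33 from 4 to 6 h. CTI12_AA433900 differed by -5.54 and CTI12_AA598760 by -5.54, both from 2 to 4 h and from 2 to 6 h; both genes were chosen through their values at 2 h and picked for this fall, the pseudocount sets its size, and the difference is a description.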

How the results depend on the processing

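The number of genes the rule finds follows its limits: 91 with 0 in all libraries at 0 h and 214 with 0.5 or less. With at least 2, 10 and 20 at an exposed harvest it was 285, 51 and 19, and with median-ratio scaling it was 110. Without a single library it was 118 to 132. Leaving out a library only loosens the rule, so this number could not fall below 116 and is no check of stability. Leaving out single libraries gave 28 to 46 members lower at 4 h than at 2 h and 28 to 45 lower at 6 h than at 2 h; the low ends come from leaving out a library at 2 h, which takes 15 members out of the test and loses up to 4 further calls. The other 4 counts of members stayed within 1.5 times under every alternative run, and in all 128 of the 138 recomputed counts did. With the replicate block the counts from 2 to 4 h were 41 and 47, and those from 4 to 6 h 16 and 18. For CTI12_AA422800 and CTI12_AA165170, no called log2 difference changed sign or lost its call. This covers the replicate block, the other pseudocounts, median-ratio scaling and leaving out each library. The 4 named genes were not checked with no filter, without trend or robust estimation, or in the exposed libraries alone. As a description, the falls of CTI12_AA433900 and CTI12_AA598760 kept their sign in the settings run. Both genes could not be fitted without a 2 h library. Read depth is unknown, so values near 0 carry no stated limit of detection, and 3 libraries per harvest limit all tests.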

Other observations

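Identifiers in the table run in steps of 10, and 3 pairs of members carry consecutive ones; where they lie in the genome was not analysed here. In 2 of the 3 pairs both genes had the same state at each harvest: ranks 14 and 57 appeared after 2 h and were present at both later harvests, and ranks 40 and 42 were present at 2 h and between later. Rank 57 stood at 7.86, 11.52 and 11.31 at 4 h and at 11.78, 11.26 and 9.37 at 6 h. Rank 40 stood at 16.81, 14.47 and 13.89 at 2 h and rank 42 at 15.84, 9.07 and 17.28. The third pair, ranks 94 and 107, differed at 4 h, where rank 94 was between and rank 107 present.

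Genes outside the 116 with an identifier next to a member's numbered 226, of which 61 were listed at 0 in every library and 90 could be tested. Against 0 h, 39 of the 90 (43.3%) were higher and 17 (18.9%) lower at 2 h, beside 36.2% and 20.8% of all tested genes. At 4 h 46 (51.1%) were higher and 7 (7.78%) lower, beside 42% and 18%, and at 6 h 41 (45.6%) were higher and 8 (8.89%) lower, beside 41.3% and 18.5%; the 3 comparisons share the libraries at 0 h. At 6 h a rise of at least 1 on the log2 scale was called in 17 of them (18.9%), and in 11.6% of all tested genes.

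Of the genes near 0 at 0 h, 184 had a mean of 5 or more at some exposed harvest, and 68 of them are not members because a library fell short of 5. In 45 of these 68, a harvest held a library at 0.1 or less beside another at 5 or more. Over the whole table, the genes split in this way numbered 126, 144, 163 and 201 in order of harvest.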
